A study of Mus musculus with 3 samples.

Results

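The genes examined were 9 genes of retinoic acid signalling, namely the receptors Rara, Rarb and Rarg, the degrading enzymes Cyp26a1 and Cyp26b1, the binding proteins Crabp1 and Crabp2, the uptake receptor Stra6 and the reductase Dhrs3. They were chosen by name from the 55450 genes of the GENCODE M21 basic annotation (GRCm38), and their data were all CCGG positions in or within 10 kb of the 9 genes. Of the 1026125 CCGG positions listed in any of the 3 tables of the series, 484 were at these genes, with 58 in promoters, 292 in gene bodies and 134 in flanks. A promoter was 1 kb on each side of a start site, the body was the rest of the gene span and the flanks were 10 kb on each side. The undifferentiated sample was the mouse embryonic stem cell (ESC) line E14Tg2A on day 0, grown with leukemia inhibitory factor. The untreated sample was the same line on day 7 after withdrawal of this factor and addition of retinoic acid. The treated sample was differentiated in the same way with 3 mM pargyline, an inhibitor of the histone demethylase LSD1. Both day 7 samples had thus received retinoic acid, there was no day 7 sample without it, and each group was 1 library of 1 established line. Cell identity could not be checked with marker genes, because the tables hold reads of methylated DNA and no expression.

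Retinoic acid is made from vitamin A and enters the nucleus, where it binds the receptors RARA, RARB and RARG. These receptors pair with retinoid X receptors on response elements, which are repeats of a short core sequence in DNA, and recruit coactivators when the ligand is bound. Cells answer with genes that limit the signal, among them the enzymes that break retinoic acid down. Several of the genes described here, such as Rarb, Cyp26a1 and Stra6, are textbook targets of retinoic acid in differentiating ESCs.

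In MethylRAD the enzyme FspEI releases short fragments around a methylated cytosine, and the number of reads at a CCGG position increases with its methylation. CCGG reads totalled 31614085 (undifferentiated), 36654600 (untreated) and 25767119 (treated), with medians of 26, 30 and 23 reads per listed position. Values are given as reads, or as normalized reads, which are reads per 1000000 CCGG reads of the same table, and sets of 3 values follow the order undifferentiated, untreated and treated. A position with fewer than 5 reads was not listed, so it can have had up to 4 reads. A position was called higher or lower at a fold of at least 2 in normalized reads with at least 10 reads in the higher library, and an unlisted position counted as 4 reads when it was the lower one. A promoter, body or flank was called at a fold of at least 2 with at least 20 reads, with unlisted positions at 4 reads in the lower library. There was 1 library per group, so the spread between replicates is unknown and no test was made. The 95% intervals in parentheses are exact Poisson intervals and cover counting error only, as no molecular identifiers tell PCR copies apart.

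The positions on which the results turn are shown with 13 bases on each side, on the plus strand of GRCm38, with the CCGG motif in capitals. The first 6 lie in promoters whose reads differed between the samples, the seventh was not listed in the untreated sample, and the last 3 lie in gene bodies.
Cyp26a1, chr19:37697906-37697935: tgccatggggctcCCGGcgctgctggccag
Cyp26b1, chr6:84594718-84594747: cccccatcacagcCCGGctagccagctctc
Crabp2, chr3:87948297-87948326: gctagtggggtctCCGGatgcctggagctg
Crabp2, chr3:87948559-87948588: aacaggagggattCCGGaaaggatgggggt
Rarg, chr15:102256847-102256876: cccccgccccactCCGGtggaagaatgcca
Rarb, chr14:16574964-16574993: atccaggatctgcCCGGgactcactgacag
Stra6, chr9:58129606-58129635: aaggggaagaggtCCGGaaggggaaaccaa
Rara, chr11:98970589-98970618: gccaagcagcttcCCGGcttcaccaccctc
Crabp1, chr9:54771518-54771547: tgccacgtaggtgCCGGgacgcaaaccctg
Dhrs3, chr4:144917503-144917532: tggcaggaggtgtCCGGgaaaaatatgtca

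The first question was whether methylated reads at these genes changed during differentiation, and whether they differed with LSD1 inhibition. Reads in the 9 promoters together were similar on day 0 and in the untreated sample, and about 2 times as high in the treated sample. The promoters held 467, 545 and 747 reads, or 14.8 (13.5 to 16.2), 14.9 (13.6 to 16.2) and 29.0 (26.9 to 31.1) normalized reads. The treated promoters were 1.95-fold (1.74 to 2.18) above the untreated and 1.96-fold (1.75 to 2.21) above the undifferentiated promoters, and the untreated to undifferentiated ratio was 1.01 (0.888 to 1.14). These ratios depended on the scaling, and scaled to all mapped reads (the deposited RPM values) they were 1.50 (1.34 to 1.68), 1.21 (1.08 to 1.36) and 0.807 (0.712 to 0.915). The sum was dominated by Stra6, which held 60.0%, 35.4% and 38.0% of the promoter reads, and without it the untreated promoters were 1.62-fold (1.36 to 1.95) and the treated promoters 3.04-fold (2.56 to 3.62) above the undifferentiated ones. With start sites of all annotated transcripts, the treated promoters were 1.56-fold above the untreated ones. Bodies showed no such difference, and flanks showed a smaller one between the day 7 samples. The body ratios were 0.945 (untreated to undifferentiated), 0.933 (treated to undifferentiated) and 0.987 (treated to untreated). The flank ratios were 0.824, 0.936 and 1.14 (1.08 to 1.20 for the last). With scaling to CCGG reads, treated flanks were above untreated flanks in 8 of the 9 genes, against 51.8% of protein-coding genes. Of the 9 flank intervals of the treated to untreated ratio, 4 lay above 1 and 0 below 1. Higher in the treated than in the untreated sample were 17.9% of flank positions, against 11.3% of all CCGG positions.

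**Figure D1:**
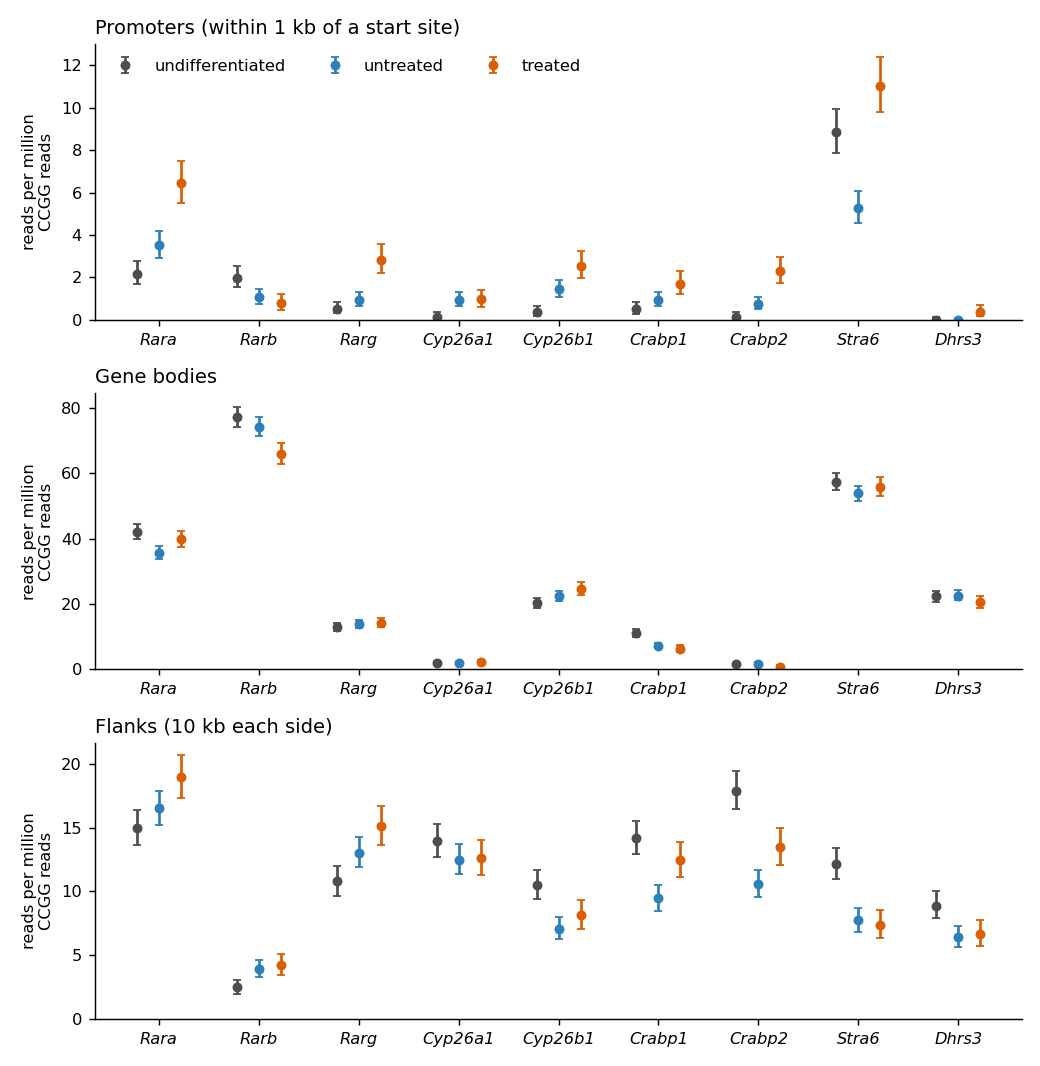
Normalized reads (per 1000000 CCGG reads) of each gene in promoters, bodies and flanks, with 1 point per library and 95% Poisson intervals (counting error only). Treated promoters lie highest in 8 of 9 genes, by 0.970 against 0.955 in Cyp26a1, and Rarb is the exception; scaled to all mapped reads, Cyp26a1 and Stra6 are exceptions too.

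Single positions were then compared. Over all 484 positions, the untreated sample was higher than the undifferentiated sample at 65 (13.4%, against 15.1% of all CCGG positions) and lower at 90 (18.6% against 16.4%). The treated sample was higher than the undifferentiated sample at 99 (20.5% against 19.8%) and lower at 94 (19.4% against 17.2%). It was higher than the untreated sample at 78 (16.1% against 11.3%) and lower at 26 (5.37% against 5.75%). These shares were near the background, apart from the 78 positions. When reads were scaled to all mapped reads, the higher and lower calls were 36 and 116, 53 and 166, and 48 and 57 in the same order, because this scaling moves every log2 ratio by -0.32, -0.69 and -0.38. The background moved with it, to 9.29% and 21.7%, 10.2% and 32.2%, and 7.15% and 14.0%.

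Promoter positions stood further from their background in the comparison of the day 7 samples. Of the 58 promoter positions, 9 (15.5%) were higher and 6 (10.3%) lower in the untreated than in the undifferentiated sample, against 14.0% and 11.4% of the positions within 1 kb of any start site. Between the treated and undifferentiated samples 18 (31.0%) were higher and 4 (6.90%) lower, against 21.7% and 10.9%. Between the treated and untreated samples 19 (32.8%) were higher and 2 (3.45%) lower, against 15.1% and 4.51%. Among start-site positions in windows of high or intermediate CpG content, the background of higher calls was 12.6%, 21.8% and 17.0% in the 3 comparisons. The 19 higher positions belonged to 5 genes, with 7 in Stra6, 5 in Rara, 3 each in Rarg and Crabp2 and 1 in Crabp1, and without Stra6 they were 12 of 46 (26.1%). With neighbouring positions within 32 bp merged they were 17 of 51 (33.3%). Scaled to all mapped reads, 12 of the 58 (20.7%) were higher and 3 (5.17%) lower in the treated than in the untreated sample, against 10.9% and 10.5% of start-site positions.

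**Figure D2:**
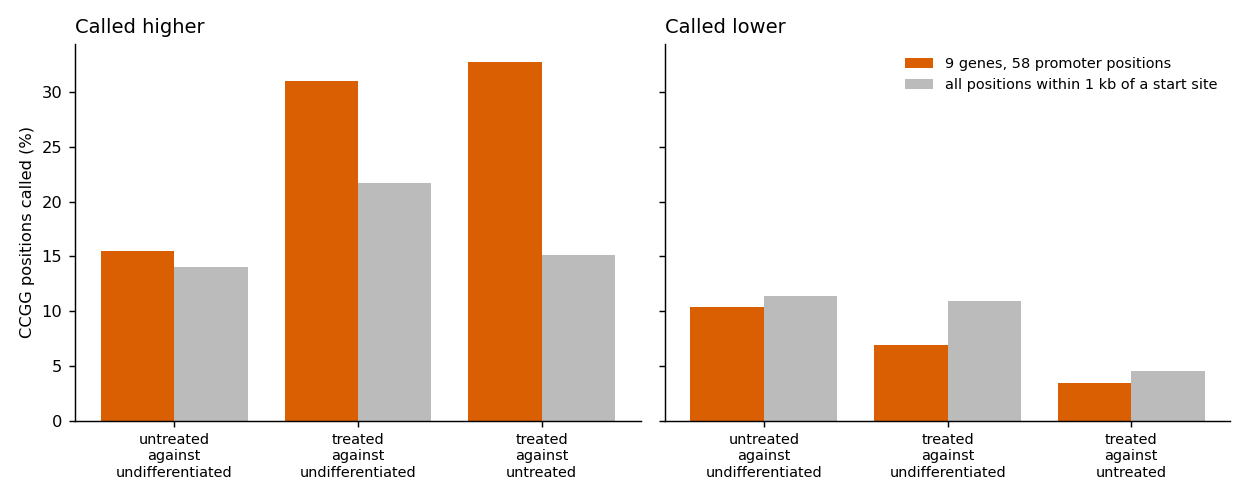
Percentage of CCGG positions called higher (left) or lower (right) at a fold of at least 2, for the 58 promoter positions of the 9 genes and for all positions within 1 kb of a start site. The bars differ most for positions higher in the treated than in the untreated sample, at 32.8% against 15.1%.

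Of the promoters as a whole, 1 of 9 was higher in the untreated than in the undifferentiated sample (Cyp26a1) and none was lower, against 6.71% and 6.9% of the 35083 gene promoters with a CCGG position. In the treated sample 3 were higher than in the undifferentiated sample (Cyp26a1, Cyp26b1 and Crabp2) and 1 was lower (Rarb), against 14.0% and 7.09%. Crabp2 was also the 1 promoter called higher in the treated than in the untreated sample and none was called lower, against 7.74% and 2.0%. With unlisted positions taken as 0 reads in place of 4, the higher promoters numbered 3, 6 and 3, against 12.1%, 19.7% and 11.4% of all promoters. Scaled to all mapped reads, the calls of Cyp26a1 (at least 1.86-fold and 1.46-fold) and Crabp2 (at least 1.79-fold and 1.62-fold) ended, those of Cyp26b1 (at least 2.08-fold) and Rarb (at least 3.46-fold) stayed, and Rarb was also lower in the untreated than in the undifferentiated sample (2.34-fold). With this scaling the shares of all promoters called higher and lower were 3.55% and 11.0% (untreated to undifferentiated), 4.38% and 19.2% (treated to undifferentiated) and 3.51% and 5.95% (treated to untreated). The median promoter of the 9 genes had 0.506, 0.955 and 2.29 normalized reads, and the median over protein-coding genes, as all 9 are, was 0.728, 0.900 and 1.28 (1.01, 1.06 and 1.36 over all genes). With scaling to CCGG reads, treated promoters were above untreated promoters in 8 of the 9 genes, in 65.5% of protein-coding genes and in 58.7% of all genes. Scaled to all mapped reads they were above in 7 of the 9 genes (without Cyp26a1), and the shares of other genes were not counted at that scaling.

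Rara (chr11:98927818-98974942, plus strand) encodes the most widely expressed of the 3 receptors. Its 3 promoter windows around 5 start sites held 69, 129 and 166 reads at 13 positions, or 2.18 (1.70 to 2.76), 3.52 (2.94 to 4.18) and 6.44 (5.50 to 7.50) normalized reads. The treated promoter was highest, and none of the 3 intervals overlapped. The treated promoter was at least 1.67-fold above the untreated and at least 1.87-fold above the undifferentiated promoter with unlisted positions at 4 reads, so it was not called. An intronic position 734 bp upstream of a start site (chr11:98938977) had 9, 21 and 35 reads and was called higher in each comparison. By contrast, the deepest promoter position (chr11:98939986) had 42, 44 and 41 reads. Coding positions towards the 3′ end of Rara differed from each other. Those at chr11:98970602 and chr11:98971653 had 94, 12 and 8 reads and 62, 8 and 12 reads and were lower in both day 7 samples than on day 0. The last coding position (chr11:98973569) had 8, 11 and 25 reads and was higher in the treated sample, and that at chr11:98968146 had 13, 38 and 21 reads and was higher in the untreated sample. Between the first pair, intronic positions 7 bp apart (chr11:98970695 and chr11:98970702) had 0, 13 and 14 reads and 0, 13 and 13 reads. Positions this close share fragments, so these are not separate observations. Intronic positions at chr11:98951812 and chr11:98965001 had 0, 24 and 9 reads and 12, 49 and 10 reads, highest in the untreated sample. In the upstream flank, inside Cdc6, the deepest position (chr11:98918783) had 73, 122 and 64 reads and that at chr11:98922667 had 11, 0 and 17 reads.

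Rarb (chr14:16430839-16819156, minus strand) encodes the receptor that is itself induced by retinoic acid. Its promoter was the only one of the 9 with fewer normalized reads in the treated than in the untreated sample. It held 63, 39 and 20 reads at 3 of its 9 CCGG motifs, or 1.99 (1.53 to 2.55), 1.06 (0.757 to 1.45) and 0.776 (0.474 to 1.20) normalized reads. The undifferentiated promoter was at least 2.14-fold above the treated promoter and 1.87-fold above the untreated one, and the treated to untreated ratio was 0.730 (0.403 to 1.28). The position shown above, chr14:16574977, in a coding exon 566 bp downstream of the start site, had 20, 5 and 0 reads. A position 106 bp further on, at chr14:16574871, had 30, 22 and 12 reads, and the third, upstream of the start site at chr14:16576062, had 13, 12 and 8 reads. All 3 positions had their most reads on day 0, in a table that was less deep than the untreated table. With start sites of all annotated transcripts the order stayed the same, at 4.90, 3.11 and 2.52 normalized reads.

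In the long body of Rarb, single positions were called in both directions while their sum was not called. The body held 77.2, 74.2 and 65.9 normalized reads at 80 positions, and the treated to undifferentiated ratio was 0.853 (0.802 to 0.908). Most of these positions lay upstream of the basic start sites, in the part of the gene span outside the basic transcripts. In the treated sample 14 positions were higher and 21 lower than in the undifferentiated sample, against 19.8% and 17.2% of all CCGG positions. An intronic position near the start site (chr14:16572847) had 46, 0 and 13 reads. Of the positions upstream of the basic start sites, those at chr14:16686642, chr14:16633069 and chr14:16758921 had 45, 0 and 0 reads, 39, 5 and 0 reads, and 58, 10 and 0 reads. These 3 positions fell below the listing limit in the treated sample. In the same stretch, the position at chr14:16607884 had 17, 75 and 59 reads and was higher in both day 7 samples, and that at chr14:16579817 had 6, 35 and 14 reads. Those at chr14:16490023, in an intron, and chr14:16671625 had 35, 0 and 9 reads and 34, 20 and 0 reads. The deepest Rarb position, at chr14:16594758, had 115, 111 and 54 reads.

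Rarg (chr15:102234938-102257517, minus strand) encodes the receptor that is prominent in early embryonic cells. Its promoters held 17, 34 and 73 reads at 9 of 26 motifs, or 0.538 (0.313 to 0.861), 0.928 (0.642 to 1.30) and 2.83 (2.22 to 3.56) normalized reads. The treated promoters were highest, and their interval did not overlap those of the other samples. With unlisted positions at 4 reads the treated promoters were at least 1.92-fold above the untreated and at least 1.99-fold above the undifferentiated promoters, just under the limit of 2. The differences were smaller with start sites of all annotated transcripts. The Rarg promoters then held 160, 215 and 216 reads at 15 positions, or 5.06, 5.87 and 8.38 normalized reads. The intronic position shown above (chr15:102256860) had 9, 12 and 26 reads. Upstream of the outer start site, positions 8 bp apart (chr15:102257717 and chr15:102257725) had 0, 8 and 13 reads and 0, 6 and 14 reads. Further upstream, outside the promoter, chr15:102258913 had 0, 11 and 17 reads and chr15:102259142 had 0, 6 and 10 reads. Neighbouring upstream positions differed from these, as chr15:102258960 had 7, 13 and 10 reads, chr15:102257590 had 0, 8 and 0 reads and chr15:102258713 had 0, 0 and 5 reads. In the body, the position at chr15:102251406 was not listed in the treated sample, with 37, 10 and 0 reads. The flank held 10.8, 13.0 and 15.1 normalized reads. Its deepest position (chr15:102260783) had 46, 89 and 79 reads, and a downstream position (chr15:102232450) had 41, 28 and 5 reads.

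**Figure D3:**
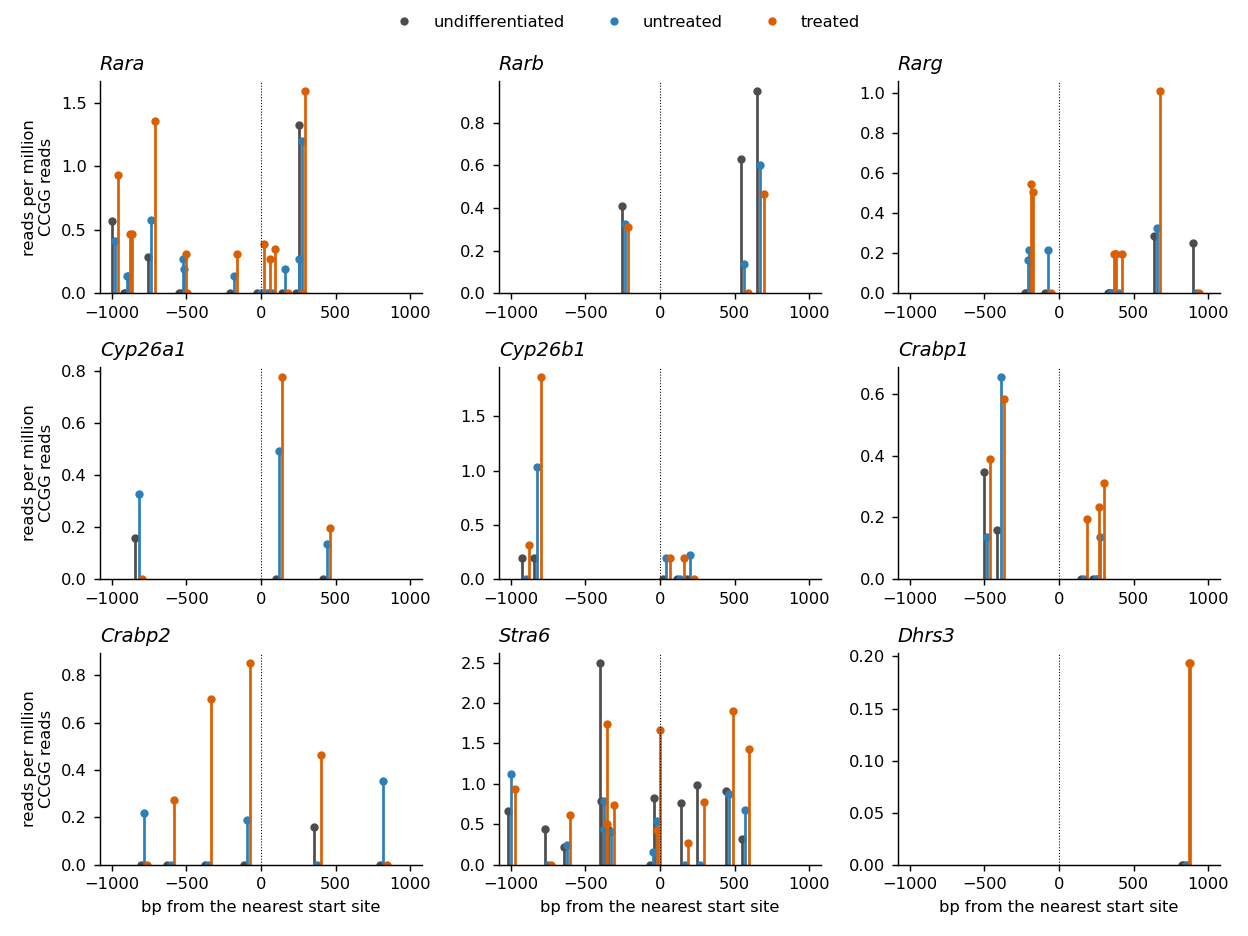
Normalized reads (per 1000000 CCGG reads) at each promoter position of the 9 genes against the distance from the nearest start site (dotted line, upstream to the left), with the 3 libraries drawn side by side and points at 0 for positions that were not listed. The scale of the vertical axis differs between the panels. In Rarb the undifferentiated sample is highest at each of the 3 positions.

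Cyp26a1 (chr19:37697798-37701536, plus strand) encodes a cytochrome P450 that breaks down retinoic acid and is strongly induced by it. Its promoter had more reads on day 7 than on day 0, with or without pargyline. It held 5, 35 and 25 reads at 3 of 10 motifs, or 0.158 (0.0514 to 0.369), 0.955 (0.665 to 1.33) and 0.970 (0.628 to 1.43) normalized reads. The untreated promoter was at least 2.32-fold and the treated promoter at least 2.36-fold above the undifferentiated one, whereas the treated to untreated ratio was 1.02 (0.583 to 1.75). Most of these reads came from 1 coding position 121 bp downstream of the start site (chr19:37697919), which had 0, 18 and 20 reads and was at least 3.88-fold and 6.13-fold higher. The upstream position at chr19:37696978 had 5, 12 and 0 reads, so the promoter positions differed from each other. In the short body, a coding position (chr19:37699213) had 0, 0 and 10 reads, while intronic positions at chr19:37699340 and chr19:37700967 had 12, 0 and 0 reads and 10, 0 and 0 reads. The flank contains Cyp26c1, a related enzyme gene, and 10 of its 23 positions were in or within 1 kb of that gene. The deepest position of the Cyp26a1 region (chr19:37702951) had 85, 65 and 26 reads.

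Cyp26b1 (chr6:84571414-84593908, minus strand) encodes the second enzyme of this family. Its promoters held 12, 53 and 66 reads at 5 of 20 motifs, or 0.380 (0.196 to 0.663), 1.45 (1.08 to 1.89) and 2.56 (1.98 to 3.26) normalized reads. The treated promoters were at least 3.37-fold above the undifferentiated ones, and the untreated promoters at least 1.90-fold, under the limit. The treated to untreated ratio was 1.77 (1.22 to 2.59). A single position 823 bp upstream of the outer start site (chr6:84594731) carried most of this difference, with 6, 38 and 48 reads, or 0.190, 1.04 and 1.86 normalized reads. It was 5.46-fold higher in the untreated and 9.82-fold higher in the treated than in the undifferentiated sample.

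A run of positions inside Cyp26b1, singled out after its values were seen, was not listed on day 0. In the first intron of the transcripts with the innermost start site (chr6:84584475-84587580), 10 of 14 motifs were in a table, and 1 of the 10 also lay in a promoter window. None of the 10 was listed in the undifferentiated sample, and reads totalled 0, 33 and 107. Of these positions 4 were listed in both day 7 samples, and 6 entered the set through the treated table alone, so neither the number listed in that table nor the difference in the totals is a result. The 4 positions listed in both day 7 samples had 9, 9, 9 and 6 reads without pargyline, and 19, 17, 10 and 20 reads with it. Some positions of the run lie within 32 bp of each other and can share fragments. The treated to undifferentiated ratio was 1.22 (1.09 to 1.36) over the whole body and 1.02 (0.909 to 1.15) without the run. As the run had 0 reads on day 0, leaving it out could only lower this ratio, so the fall is not a result. In the body without the run 8 of 27 positions were higher and 3 lower, against 19.8% and 17.2% of all CCGG positions. Not all of the gene followed, as the position in the 3′ UTR at chr6:84572107 had 31, 0 and 0 reads. The deepest position, downstream at chr6:84566251, had 66, 58 and 53 reads.

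**Figure D4:**
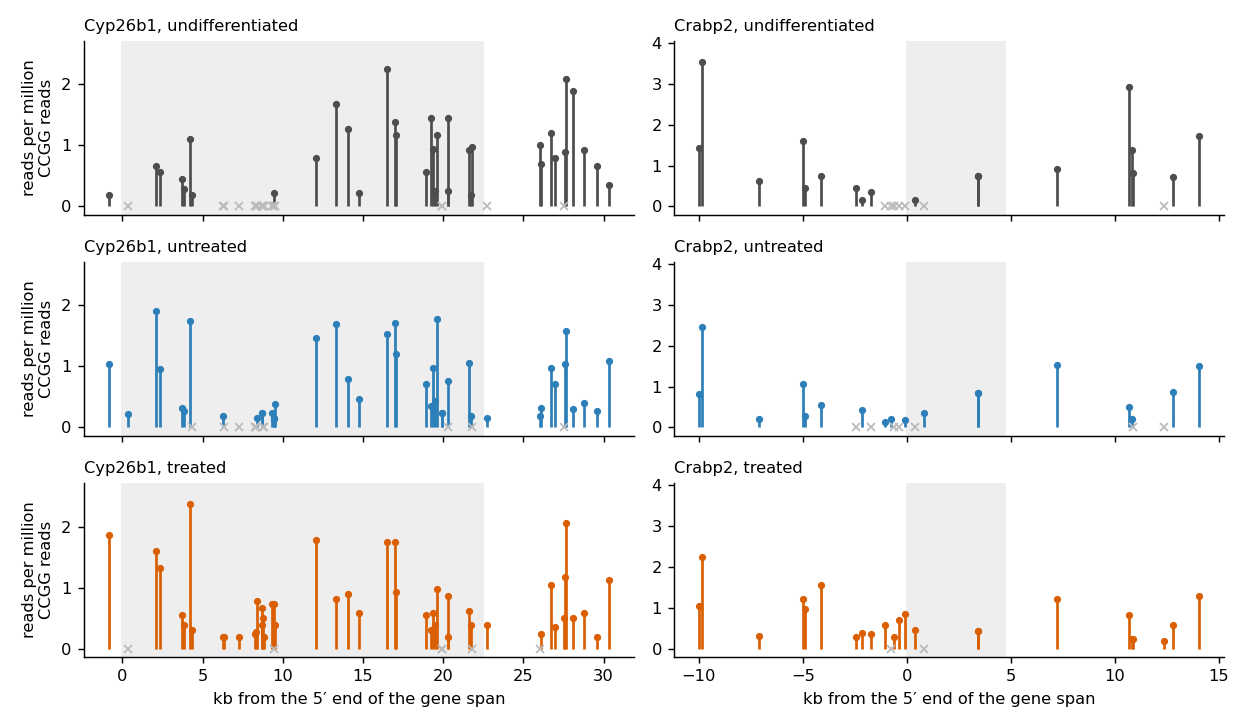
Normalized reads (per 1000000 CCGG reads) at each position of Cyp26b1 and Crabp2 in the 3 libraries against the distance from the 5′ end of the gene span (grey area). Crosses at 0 mark positions not listed in that library, such as those from 6 to 9 kb into Cyp26b1 in the undifferentiated sample.

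Crabp1 (chr9:54764748-54773110, plus strand) and Crabp2 (chr3:87948666-87953376, plus strand) encode small proteins that bind retinoic acid in the cytoplasm, and CRABP2 hands it to the receptors. The promoter of Crabp1 held 16, 34 and 44 reads at 5 of 6 motifs, or 0.506 (0.289 to 0.822), 0.928 (0.642 to 1.30) and 1.71 (1.24 to 2.29) normalized reads. The treated promoter was at least 1.93-fold above the undifferentiated one, so it was not called. Its deepest position, upstream of the start site at chr9:54764357, had 5, 24 and 15 reads. The body of Crabp1 had fewer normalized reads on day 7 than on day 0, with 11.1 (9.97 to 12.3), 7.28 (6.44 to 8.21) and 6.29 (5.36 to 7.33) normalized reads. The untreated to undifferentiated ratio of the body was 0.656 (0.557 to 0.771) and the treated to undifferentiated ratio 0.566 (0.467 to 0.684). The first was the lowest of the 9 body ratios in that comparison, and neither was called. The intronic positions at chr9:54771531 and chr9:54769792 had 93, 42 and 7 reads and 48, 14 and 7 reads. The first was called lower in each comparison. The deepest position, in the 3′ UTR at chr9:54772905, had 112, 56 and 50 reads. An intronic position between them and the start site (chr9:54768931) had 0, 26 and 15 reads, against the direction of the body. Downstream of the gene, chr9:54778497 had 8, 0 and 28 reads.

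The promoter of Crabp2 had its fewest reads on day 0 and its most in the treated sample. It held 5, 28 and 59 reads at 6 of 8 motifs, or 0.158 (0.0514 to 0.369), 0.764 (0.508 to 1.10) and 2.29 (1.74 to 2.95) normalized reads. The 3 intervals did not overlap. The treated promoter was at least 2.90-fold above the undifferentiated and at least 2.10-fold above the untreated promoter. These differences were smaller with start sites of all annotated transcripts. The Crabp2 promoter then held 53, 90 and 81 reads at 8 positions, or 1.68, 2.46 and 3.14 normalized reads. The position 94 bp upstream of the start site (chr3:87948572) had 0, 7 and 22 reads, and the position 356 bp upstream (chr3:87948310) had 0, 0 and 18 reads. The second was at least 6.40-fold higher in the treated than in the untreated sample. The intronic position at chr3:87949044 had 5, 0 and 12 reads. In the opposite direction, the position at chr3:87949486, also in an intron, had 0, 13 and 0 reads. The body had only positions 6 bp apart, with 24, 31 and 11 reads at both, so they can be read as 1 fragment. Downstream of Crabp2, 3 neighbouring positions had fewer reads on day 7. Those at chr3:87959326, chr3:87959460 and chr3:87959537 had 93, 18 and 21 reads, 44, 8 and 6 reads, and 26, 0 and 6 reads. Of the 17 flank positions, 1 was higher and 6 lower in the untreated than in the undifferentiated sample, against 15.1% and 16.4% of all CCGG positions. In the treated sample 4 were higher and 4 lower than in the undifferentiated sample, against 19.8% and 17.2%. The deepest position, upstream in Isg20l2 (chr3:87938810), had 112, 90 and 58 reads. The flank as a whole held 17.9, 10.6 and 13.5 normalized reads, with an untreated to undifferentiated ratio of 0.590 (0.517 to 0.672).

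Stra6 (chr9:58063788-58153996, plus strand) encodes the membrane receptor that takes up retinol from its carrier in blood. Its promoters differed from the others in level and in pattern. They held 280, 193 and 284 reads at 12 of 12 motifs, or 8.86 (7.85 to 9.96), 5.27 (4.55 to 6.06) and 11.0 (9.78 to 12.4) normalized reads, the highest promoter level of the 9 genes in each sample. Reads were lowest in the untreated sample, with an untreated to undifferentiated ratio of 0.594 (0.492 to 0.717) and a treated to untreated ratio of 2.09 (1.74 to 2.53). With unlisted positions at 4 reads the second was at least 1.97-fold and not called. The promoters of Stra6 also had the lowest CpG ratio (observed to expected CpG) of the 9, at 0.224, and Rara followed with 0.432. The fall from day 0 to the untreated sample lay mainly at 3 positions. Those in the 5′ UTR at chr9:58129619 and chr9:58129514 had 31, 0 and 20 reads and 24, 0 and 7 reads, and the position at chr9:58128711 had 79, 29 and 45 reads. The first was at least 7.11-fold higher in the treated than in the untreated sample. Of the 12 positions 7 were called higher in the treated than in the untreated sample, among them chr9:58134055 with 26, 20 and 43 reads, chr9:58135130 with 29, 32 and 49 reads and the intronic position at chr9:58135238 with 10, 25 and 37 reads. In the body, 57.3, 53.8 and 55.7 normalized reads were found, and 44 of its 59 positions with 66.9% to 70.2% of its reads lay in Ccdc33, because the annotated span of Stra6 overlaps that gene. The position at chr9:58114248 in this overlap had 0, 0 and 24 reads, and the deepest position at chr9:58091257 had 61, 166 and 72 reads. Outside the overlap, chr9:58122791 had 5, 21 and 34 reads.

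Dhrs3 (chr4:144892827-144928209, plus strand) encodes a reductase that turns retinaldehyde back into retinol. Its promoter had the fewest reads, with 0, 0 and 10 reads at 2 of 10 motifs. These positions were 7 bp apart with 5 reads each and can be read as the same fragments, so the promoter was near the limit of detection in all samples. The 0 reads do not show that methylation was absent, as each motif can have had up to 4 reads. With start sites of all annotated transcripts the promoter held 20, 16 and 24 reads at 3 positions. The body was nearly level, at 22.4 (20.7 to 24.1), 22.6 (21.1 to 24.2) and 20.6 (18.9 to 22.4) normalized reads. Within it, the intronic position at chr4:144917516 had 0, 24 and 32 reads and was higher in both day 7 samples. A coding position (chr4:144923948) had 7, 23 and 0 reads. Downstream, chr4:144931143 had 35, 0 and 0 reads, and chr4:144933963, where the reference does not read CCGG, had 0, 20 and 31 reads. The deepest position (chr4:144897491) had 102, 124 and 49 reads.

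No body and no flank of the 9 genes was called in any comparison. Among all genes, 6.16% of bodies were called in either direction between the untreated and undifferentiated samples, 8.2% between the treated and undifferentiated samples and 2.99% between the treated and untreated samples. For flanks these shares were 5.0%, 6.29% and 1.96%. Scaled to all mapped reads, 2 bodies (Crabp1 and Crabp2) and 4 flanks (Cyp26b1, Crabp2, Stra6 and Dhrs3) were lower in the treated than in the undifferentiated sample, against 19.2% of bodies and 20.7% of flanks of all genes. The flank of Crabp2 was then also lower in the untreated than in the undifferentiated sample (6.27% of all flanks), and its body in the treated than in the untreated sample (2.73% of all bodies). The body ratios of the 9 genes ranged from 0.656 to 1.11, from 0.562 to 1.22 and from 0.505 to 1.21, and the flank ratios from 0.590 to 1.59, from 0.609 to 1.71 and from 0.955 to 1.32. In the flanks, 5 of 9 intervals of the untreated to undifferentiated ratio lay below 1 (Cyp26b1, Crabp1, Crabp2, Stra6 and Dhrs3) and 2 above 1 (Rarb and Rarg). Flank values include neighbouring genes for Rara (Cdc6 and Gjd3), Rarb (Top2b), Rarg (Itgb7), Cyp26a1 (Cyp26c1), Crabp2 (Isg20l2) and Stra6 (Ccdc33 and Islr).

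**Figure D5:**
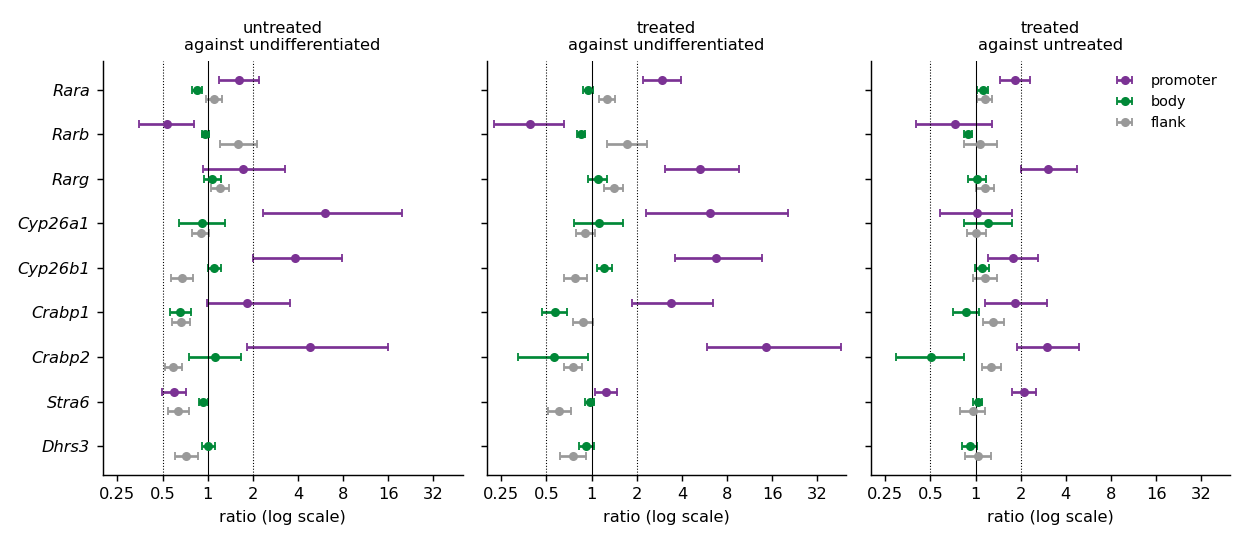
Ratio of normalized reads between libraries for the promoter, body and flank of each gene, on a log scale with 95% exact intervals (counting error only), solid lines at 1 and dotted lines at 0.5 and 2. Unlisted positions count as 0 reads here, so ratios of promoters with few listed positions are larger than the lower bounds in the text, and the Dhrs3 promoter has no ratio because it had 0 reads in at least 1 library of each pair. Body ratios lie between 0.505 and 1.22.

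The share of motifs that were listed depended on the CpG content around them. Of the 147 reference CCGG motifs in the 9 promoters, 17.0%, 25.9% and 32.0% were listed, against 24.5%, 29.3% and 32.7% of the 228487 promoter motifs of all genes. In windows of 500 bp with high CpG content, 2.17%, 6.52% and 4.35% of the 46 motifs of the 9 genes were listed, against 3.22%, 9.18% and 11.4% in the genome. In intermediate windows 17.6%, 27.1% and 31.8% of 170 motifs were listed, against 23.5%, 27.4% and 30.9%. In low CpG windows 62.2%, 64.3% and 67.9% of 524 motifs were listed, against 60.4%, 60.2% and 60.1%. From day 0 to the treated sample the listed motifs of the 9 genes went from 30 to 54 in intermediate windows and from 326 to 356 in low CpG windows. Of the 484 positions, 308 (63.6%, against 71.9% of all CCGG positions) were listed in all 3 samples, 47 (9.71% against 5.66%) only in the treated, 21 (4.34% against 3.07%) only in the untreated and 19 (3.93% against 5.31%) only in the undifferentiated sample, and 48 (9.92% against 6.46%) in both day 7 samples but not on day 0. At 13 positions the GRCm38 reference does not read CCGG.

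The promoter sequences were searched for the response elements of the receptors. These were direct repeats of a core (the letters AGGTCA, with AGTTCA also counted, as well as GGGTCA and also GGTTCA) spaced by 5 bases (DR5) or by 2 bases (DR2), on both strands. The 9 gene regions held 10 DR5 and 11 DR2 matches, and a DR5 lay in the promoters of Cyp26a1, Rarb and Rara, which are given 5′ to 3′ on the strand of the match with the cores in capitals because they place the CCGG positions relative to a possible receptor site.
Cyp26a1, chr19:37697776-37697792, minus strand: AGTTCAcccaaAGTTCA
Rarb, chr14:16575513-16575529, minus strand: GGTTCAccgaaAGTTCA
Rara, chr11:98960008-98960024, plus strand: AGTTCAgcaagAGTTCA
Of 41538 windows of 2001 bp around start sites of protein-coding genes, 0.628% held a DR5 and 1.09% a DR2. The match in Cyp26a1 was 14 bp upstream of the start site, and the nearest CCGG motif, 127 bp away, was the coding position with 0, 18 and 20 reads. The match in Rarb was 22 bp downstream of the start site. A CCGG motif 5 bp from it was in no table, so it had fewer than 5 reads in each sample, and the nearest listed position, 533 bp away, was the one with 20, 5 and 0 reads. The match in Rara was 396 bp upstream of a start site, with an unlisted CCGG motif 26 bp away and a position with 0, 7 and 0 reads 110 bp away. No promoter of the 9 genes held a DR2, but one lay 1135 bp upstream of Crabp2 (chr3:87947525-87947538), 90 bp from a position with 0, 5 and 15 reads. A match is only a sequence, and binding was not measured.

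Of 27 further genes of the pathway, 26 were in the annotation, 23 had promoter positions and 20 had at least 20 promoter reads in a sample. The promoters of Rxrg, a partner receptor, and Nrip1, a corepressor that is induced by retinoic acid, were higher in both day 7 samples than on day 0. Rxrg had 51, 142 and 163 reads and Nrip1 had 0, 69 and 24 reads, and Nrip1 was the 1 promoter of this list that was lower in the treated than in the untreated sample. The promoters called higher than day 0 in the treated but not in the untreated sample included those of Aldh1a2, which makes retinoic acid, with 14, 42 and 89 reads, the retinol carrier Rbp4 with 10, 14 and 26 reads, and the corepressor Ncor1 with 37, 58 and 72 reads. Aldh1a2 and Rbp4 were also higher in the treated than in the untreated sample. The promoter of Aldh1a1, another enzyme that makes retinoic acid, had 31, 12 and 0 reads at 1 position and was lower in both day 7 samples. In total 2 of the 23 promoters were higher and 1 lower in the untreated than in the undifferentiated sample, 6 were higher and 1 lower in the treated than in the undifferentiated sample, and 2 were higher and 1 lower in the treated than in the untreated sample. The shares of all promoters stand above. Scaled to all mapped reads, the calls of Aldh1a2, Rbp4 and Ncor1, that of Rxrg in the untreated sample and that of Nrip1 in the treated sample against day 0 ended, so that 1 promoter was higher than day 0 in each day 7 sample (Nrip1 without and Rxrg with pargyline) and none was higher in the treated than in the untreated sample. Promoters lower than day 0 then numbered 3 (untreated) and 2 (treated). Among the bodies, that of Fabp5 was higher on day 7 with 31, 126 and 69 reads (in the treated sample not when scaled to all mapped reads), and that of Lrat was lower with 177, 69 and 55 reads.

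The promoters with the most similar levels were sought for Cyp26b1 and Crabp2. Among 16651 protein-coding genes, the promoters closest to that of Cyp26b1, whose lower bound of change was the largest of the 9 with scaling to CCGG reads (that of Rarb was larger with scaling to all mapped reads), were those of Ndor1 and Tmem203 with 13, 53 and 71 reads and Lhx4 with 14, 55 and 65 reads. Ndor1 and Tmem203 share their promoter positions. Closest to Crabp2, which had the largest ratio of listed reads with scaling to CCGG reads, were Pld2 with 5, 27 and 59 reads, Cdk6 with 6, 27 and 57 reads and Rab11fip5 with 6, 29 and 55 reads. Likeness was the Euclidean distance over the 3 libraries of log2(normalized reads + 0.5), and it was 0.0315 for Pld2 and at most 0.111 for the others.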

How the data were processed

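MethylRAD libraries of 3 samples were analysed. After trimming, the authors used Bowtie2 (2.3.3) to map reads that held an FspEI site to GRCm38, and deposited the count of uniquely mapped reads of each CCGG or CCWGG site with at least 5 reads, without normalization. They also deposited an RPM value per site, scaled to all mapped reads. CCWGG counts were not used, because those of the undifferentiated and untreated tables had the same sums at the 9 genes. CCGG counts were scaled to the CCGG reads of each table. Genes and basic start sites were from GENCODE M21, and sequences from the RefSeq GRCm38 assembly. All 9 genes were named. In each comparison, the sites named were the up to 5 called sites with the largest fold in each direction and the deepest site of each gene, and further sites, mostly in promoters, were chosen after their values were seen. The genes and lists were chosen with earlier results of these data known. The fold rules and the region assignment were tested on simulated data. The tools were SciPy 1.17.1 and numpy 2.4.6 for statistics, pandas 2.3.3 for tables and matplotlib 3.10.9 for plots, under Python 3.11.15. Alternatives covered scaling, cutoffs, thinning, promoter width and start sites. 4 of them, the promoters without Stra6, the start sites of all transcripts, the CpG-rich background and the Cyp26b1 body without its intron run, were chosen after seeing the data. The values of 1 gene of the pathway list are not reported here.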

Additional observations from a re-analysis of the deposited data

Results flagged for a closer look

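Outside the CCGG reads, the treated table listed 597 CCAGG positions at the 9 genes, and the undifferentiated and untreated tables listed 157 each. This was noted because the comparisons above do not use these data. It is a property of the whole table and not of these genes, as the treated table listed 893047 CCAGG positions in all, against 268384 and 268386. The reads at the 9 genes were also the same in the undifferentiated and untreated tables, with 2208 at CCAGG, and in all 3 tables, with 2575 at the 182 CCTGG positions. The paper reports more CCWGG sites for the untreated than for the treated sample, and the fewest for the undifferentiated sample. The untreated table departs from this, as its CCAGG positions were about as many as those of the undifferentiated table. Why these parts of the tables differ was not tested.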

How the results depend on the processing

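Ratios are given in the order untreated to undifferentiated, treated to undifferentiated and treated to untreated. Of 111 alternative values of the site counts and promoter ratios, 82 stayed close to the reported value (counts within 1.5 times, ratios within the interval), and 29 moved. The untreated to undifferentiated promoter ratio of 1.01 lay on either side of 1 among the alternatives. The balance of higher and lower sites turned with scaling to all mapped reads between the day 7 samples and between the treated and undifferentiated samples. Between the treated and undifferentiated samples (99 and 94) it also turned with at least 20 reads (47 and 74) and with a listing cutoff of 10 reads (67 and 68). It turned there as well with scaling to the median ratio of sites listed in all tables (93 and 97) and with positions within 32 bp merged (93 and 94). At a fold of 1.5 the counts were equal (129 and 129). Scaling to all mapped reads gave 36 and 53 higher sites against the undifferentiated sample, 166 lower sites (treated), 48 higher and 57 lower sites between the day 7 samples, and promoter ratios of 0.807, 1.21 and 1.50. A fold of 1.5 gave 98 higher sites (untreated) and 61 lower sites (treated against untreated). A fold of 3 gave 22 higher and 58 lower sites (untreated), 44 lower sites (treated against undifferentiated), and 38 higher and 5 lower sites between the day 7 samples. A minimum of 20 reads gave 38, 47 and 26 higher sites, and a listing cutoff of 10 reads gave 35 higher sites (untreated) and 14 lower sites (treated against untreated). Unlisted positions at 4 reads gave a treated to undifferentiated ratio of 1.62. Promoters of 500 bp gave an untreated to undifferentiated ratio of 0.843 and a treated to untreated ratio of 2.24, and promoters of 3 kb gave treated ratios of 1.50 and 1.65. Without Stra6 the ratios to the undifferentiated sample were 1.62 and 3.04, and start sites of all transcripts gave treated ratios of 1.47 and 1.56. The cause of these changes was not tested. Shares of all promoters called moved by over 1.5 times in 5 of 30 values, which did not include scaling to all mapped reads. With that scaling each of these shares, given above, moved by over 1.5 times. No paired analysis was possible because each group had 1 library. Unlisted positions, which can hold up to 4 reads, limit the folds of the CpG-rich promoters, and a spread between replicates is unknown.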
